A study of Papio anubis with 767 samples.

Results

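The cerebellum was compared with the prefrontal cortex, spelled Prefontal cortex in the labels, across 24 of the 767 RNA sequencing libraries of an atlas of 64 tissues of the baboon. The members were chosen by tissue label alone: 12 cerebellum and 12 prefrontal cortex libraries, paired by time of sampling. The cerebellum libraries were then divided into 6 taken at ZT0 to ZT10 and 6 taken at ZT12 to ZT22, where ZT0 is lights on. All 12 animals were untreated males labelled Papio anubis, aged 5 to 6 years and weighing 7 to 11 kg, and no agent or allele separates the groups. Lights were on for 12 h and off for 12 h, with 2 feedings a day, one at 9:00 and the other at 15:00. One animal was taken every 2 h, under lethal pentobarbital and perfusion with ice-cold Ame's solution, and each brain was out in under 5 min. Each pair is 1 animal by the labels. Effects of the animal and of the hour it was taken therefore cannot be told apart. The p-values measure the spread between animals taken at different times. Punches of tissue were the starting material, and polyA RNA was made into stranded libraries.

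The cerebellar cortex is built from very numerous small granule cells, which release glutamate, and from large Purkinje cells, which release GABA and carry the output of the cortex. Molecular layer interneurons, Golgi cells, unipolar brush cells and Bergmann glia complete the circuit. The prefrontal cortex holds layered excitatory pyramidal neurons and GABA interneurons marked by peptides such as somatostatin and VIP. The 2 regions come from different parts of the neural tube, the hindbrain and the forebrain, and adult neurons keep many of the transcription factors that divide them. In bulk tissue, fewer cells of a type and less RNA per cell cannot be told apart.

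Values are FPKM, that is, reads scaled by gene length and by library depth. Assigned reads per library ranged from 4.48 M at ZT20 to 11.28 M at ZT18 in the cerebellum (median 6.52 M) and from 3.56 M to 6.72 M in the prefrontal cortex (median 5.58 M). The libraries of a few times stood apart from the rest of their tissue. On an axis of variation taken from 72 libraries of 6 other brain regions, the cerebellum library of ZT4 scored −1.67 against −0.59 to 0.58 for the other cerebellum libraries, and the prefrontal cortex library of ZT0 scored −2.39. The cerebellum library of ZT2 had a summed level of choroid plexus and ependyma markers of 288.4 FPKM, where the cerebellum median was 15.2 FPKM. The summed level of 5 meninges and fibroblast markers was 7.4 to 25.9 FPKM in the cerebellum and 135.5 to 589.3 FPKM in the prefrontal cortex, so the cortical samples carried more RNA of these genes in every library.

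Of the defining markers, GABRA6 matched the cerebellum label, and SNAP25 is a marker of neurons in both tissues. GABRA6, the GABA-A receptor subunit of cerebellar granule cells, had 80.8, 150.0 and 219 FPKM as the lowest, median and highest of the 12 cerebellum libraries. In the prefrontal cortex it had 0, 0.0444 and 0.0782 FPKM, from 15 reads in 12 libraries together. Every cerebellum library was far above every cortical library. The difference was 8.10 ± 0.12 on the log2(FPKM + 0.5) scale (SE, 12 pairs, limma, adjusted p = 1.25e-15). SNAP25, a protein of the synaptic vesicle fusion machinery used by neurons in general, was high in both tissues. It had 789, 1737 and 2148 FPKM in the cerebellum and 458, 693 and 936 FPKM in the prefrontal cortex. The ranges overlapped, because the cerebellum library of ZT20 was the lowest, yet the cerebellum was higher in 12 of 12 pairs, by 1.24 ± 0.16 log2 (limma, adjusted p = 8.29e-06). When tested against a log2 difference of 1 instead of 0, SNAP25 did not pass (adjusted p = 0.409).

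**Figure D1:**
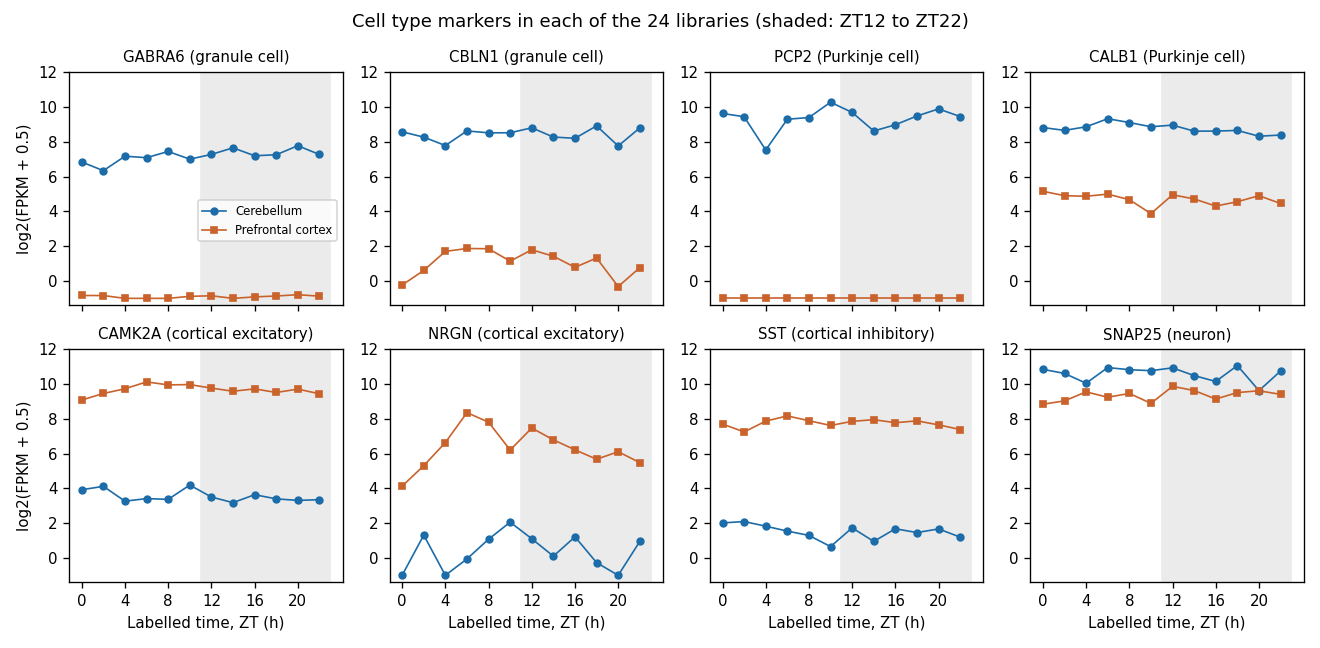
Level of marker genes in each library against time of sampling (ZT, h), on a log2(FPKM + 0.5) axis, with 1 point per library for the cerebellum and the prefrontal cortex. GABRA6 and PCP2 sit near the floor of the axis in all 12 prefrontal cortex libraries, CAMK2A is the reverse in direction, and SNAP25 is high in both tissues.

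Across the transcriptome the tissues differed in similar numbers of genes in each direction. Of 13587 genes with a mean of at least 1 FPKM in either tissue, 1783 were higher in the cerebellum (13.1%) and 1845 were lower (13.6%), with called meaning a Benjamini-Hochberg adjusted p under 0.05 in limma's paired fit and a difference of at least 2-fold. Of these, 919 were higher and 1468 lower in 12 of 12 pairs. The libraries of the tissues did not overlap at all for 529 genes that were higher (3.89%) and 1240 that were lower (9.13%). These shares of all genes are the background for the count of each list. A gene needed 1 FPKM in only 1 tissue to pass this filter, so members of a list could enter through the tissue where they are high. The median difference of all genes tested was 0.06 log2.

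The genes with the greatest excess in the cerebellum were led by products of Purkinje and granule cells. PCP2, a Purkinje cell protein that acts on G protein signalling, had 185, 701 and 1247 FPKM as lowest, median and highest in the cerebellum. It had no read in any prefrontal cortex library. The cerebellum was therefore at least 5720-fold higher, taking 3 reads over the 12 cortical libraries as the limit, and the lowest cerebellum value was that of ZT4. CBLN3 and CBLN1 encode cerebellins, which granule cells secrete to organise their synapses on Purkinje cells. CBLN3 had 40.7, 209 and 274 FPKM in the cerebellum and 0, 0.119 and 0.608 FPKM in the prefrontal cortex, a difference of 8.04 ± 0.22 log2 (limma, adjusted p = 2.77e-13). CBLN1 had 217, 368 and 485 FPKM against 0.300, 1.85 and 3.15 FPKM, a difference of 7.37 ± 0.20 log2 (limma, adjusted p = 2.55e-13). Neither cerebellin overlapped between the tissues.

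The 15 leading genes also held transcription factors and adhesion molecules of granule cells. BARHL1, a homeobox factor of granule cells, had 5.54, 28.8 and 46.2 FPKM in the cerebellum and no read in the prefrontal cortex, at least 956-fold higher. NEUROD1, a basic helix-loop-helix factor of granule cell maturation, had 44.2, 128 and 181 FPKM against 0.716, 2.00 and 2.93 FPKM (5.54 ± 0.20 log2). FAT2, a protocadherin of granule cells, had 8.75, 30.2 and 37.6 FPKM against 0, 0.0414 and 0.161 FPKM (5.65 ± 0.15 log2). The lowest cerebellum library was ZT4 for BARHL1 and ZT20 for NEUROD1 and FAT2, and none of the 3 overlapped with the cortex. CDH15, a cadherin, had 7.93 to 68.4 FPKM in the cerebellum with 2 reads in the whole cortical set. LHX1, a LIM homeobox factor of Purkinje cells, had 16.7 to 52.5 FPKM, likewise against 2 reads.

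Not all of the leading genes are classical markers of cerebellar neurons. LCN2, a secreted lipocalin that binds siderophores, had 78.7, 145 and 203 FPKM in the cerebellum against 0.379, 0.932 and 1.45 FPKM in the cortex (6.62 ± 0.19 log2, limma, adjusted p = 6.29e-13). PGAM2, the muscle form of the glycolytic enzyme phosphoglycerate mutase, had 24.3, 99.9 and 134 FPKM against 0, 0.58 and 2.11 FPKM (6.48 ± 0.29 log2). CASQ2, a calcium-binding protein of the sarcoplasmic reticulum, had 19.7, 37.5 and 52.9 FPKM against 0, 0 and 0.606 FPKM (6.00 ± 0.15 log2). All 3 were higher in each cerebellum library than in any cortical one. LTC4S, the leukotriene C4 synthase, differed by 5.84 ± 0.32 log2, the kinase gene NRK by 5.72 ± 0.10 and the lymphocyte adhesion gene CRTAM by 5.36 ± 0.12.

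**Figure D2:**
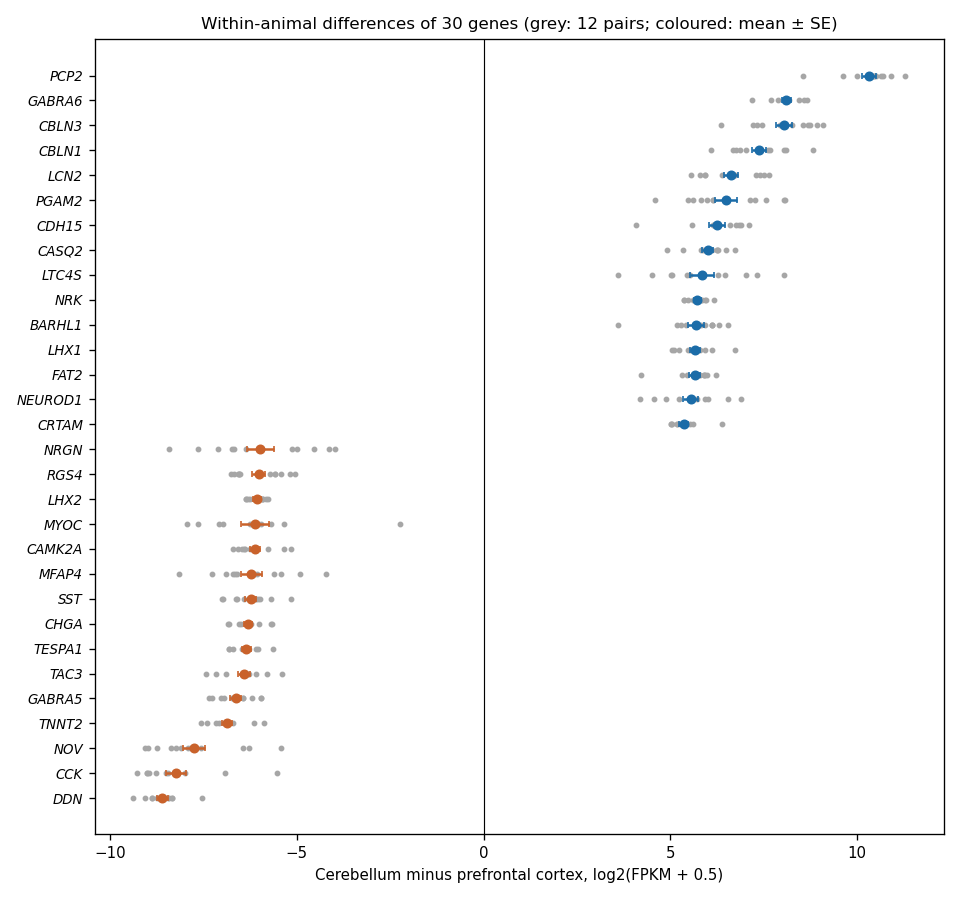
Difference between cerebellum and prefrontal cortex in log2(FPKM + 0.5) for the 15 genes most in excess and the 15 most in deficit, with the 12 pairs as grey points and the limma estimate and its SE in colour. The differences run from 10.32 for PCP2 to −8.60 for DDN, and no grey point crosses 0.

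These 30 genes were set against 6 further brain regions of the same animals. All 15 genes in excess had their highest mean in the cerebellum among the 8 regions, and for 14 of them each cerebellum library was above every library of the other regions. The exception was CASQ2, which reached 20.9 FPKM in a thalamus library. GABRA6 was next highest in the pons, with a mean of 1.33 FPKM and a highest library of 5.10 FPKM. Of the 15 genes in deficit, the cerebellum had the lowest mean of the 8 regions in 10. The prefrontal cortex was first in 11 of them. The others were GABRA5 (first in the hippocampus, mean 181 FPKM), TESPA1 (putamen, 47.6 FPKM), CHGA (visual cortex, 197 FPKM) and NRGN (putamen, 174 FPKM).

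The fuller marker lists described the same cell types. Of 18 granule cell genes, 16 were higher in the cerebellum, 1 was lower and 1 was not called, with a median difference of 4.88 log2 against 0.06 for all genes tested. ZIC1, a zinc finger factor of granule cell precursors, had 57.2, 295 and 422 FPKM against 0.856, 7.56 and 13.3 FPKM (5.18 ± 0.28 log2). GRM4, the metabotropic glutamate receptor of granule cell terminals, had 41.5, 100.4 and 156 FPKM against 1.44, 2.43 and 5.94 FPKM (5.00 ± 0.21 log2). Both had their lowest cerebellum value at ZT4 and did not overlap with the cortex. The gene that was lower was SLC17A7, the vesicular glutamate transporter that granule cells share with cortical pyramidal neurons. It had 208 to 330 FPKM in the cerebellum and 508 to 752 FPKM in the cortex, a difference of −1.19 ± 0.09 log2 (limma, adjusted p = 4.31e-08), with no overlap. CALB2, encoding calretinin, was not called at −0.90 ± 0.31 log2.

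Of 15 Purkinje cell genes tested, 14 were higher in the cerebellum and none lower, with a median of 3.20 log2, or 3.39 with the 3 genes that have no cortical read put at their lower bound. The exception was DAB1, a reelin pathway adaptor, at 0.31 ± 0.15 log2. CA8, a carbonic anhydrase-related protein that binds the IP3 receptor, had 148, 232 and 322 FPKM against 2.28, 5.59 and 7.96 FPKM (5.30 ± 0.17 log2). CALB1, the calcium buffer calbindin, had 321, 430 and 646 FPKM against 14.2, 27.3 and 35.3 FPKM (4.07 ± 0.12 log2). Both were without overlap. PVALB, a calcium buffer of Purkinje cells, molecular layer interneurons and cortical basket cells alike, had 736 to 1409 FPKM in the cerebellum and 67.0 to 158 FPKM in the cortex (3.32 ± 0.11 log2). The homeobox gene LHX5 was at least 119-fold higher and the corepressor SKOR2 at least 62.3-fold higher, both with no read in the cortex. FOXP2, often listed for Purkinje cells, was below the level needed for testing, at 0 to 0.202 FPKM in the cerebellum. All 15 genes tested reached 1 FPKM in the cerebellum, and 10 members did in the cortex. Without the filter, 14 of 16 were higher (median 3.08 log2).

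Of 11 genes for the other cerebellar neurons, 7 were higher, 1 was lower and 3 were not called (median 1.77 log2). EOMES, a T-box factor of unipolar brush cells, had 8.77, 17.5 and 35.2 FPKM against 0, 0.105 and 0.249 FPKM (4.86 ± 0.16 log2, limma, adjusted p = 2.05e-12). SLC6A5, the glycine transporter of Golgi cells, had 1.27 to 4.61 FPKM with 1 read in the whole cortical set. GJD2, which encodes connexin 36, was lower at −1.39 ± 0.14 log2. The pan-neuronal list was mixed: of 10 genes, SNAP25, RBFOX3 and NEFH were higher, MAP2 was lower and 6 were not called (median 0.52 log2). MAP2, the dendritic microtubule protein, had 2.41 to 37.0 FPKM in the cerebellum and 53.5 to 127 FPKM in the cortex, with no overlap (−1.93 ± 0.24 log2).

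Genes lower in the cerebellum were led by products of forebrain pyramidal neurons and interneurons. DDN, the dendritic protein dendrin, had 0.0185, 0.0922 and 0.165 FPKM in the cerebellum and 122, 212 and 351 FPKM in the prefrontal cortex, a difference of −8.60 ± 0.14 log2 (limma, adjusted p = 1.25e-15). CCK, the cholecystokinin precursor, had 0, 0 and 1.36 FPKM against 86.0, 218 and 309 FPKM (−8.24 ± 0.27 log2). CAMK2A, the kinase subunit of excitatory synapses in the forebrain, had 8.56, 10.1 and 17.8 FPKM against 543, 842 and 1118 FPKM (−6.12 ± 0.13 log2, limma, adjusted p = 3.06e-14). No library of one tissue reached the range of the other for these 3 genes. RGS4, a regulator of G protein signalling, had 1.93, 2.38 and 5.52 FPKM against 146, 237 and 303 FPKM (−6.02 ± 0.17 log2). NRGN, the calmodulin-binding neurogranin, had 0, 1.00 and 3.66 FPKM against 17.1, 73.8 and 328 FPKM (−5.98 ± 0.36 log2). Among the cortical libraries NRGN was lowest at ZT0 and highest at ZT6.

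Other leading genes of this direction included TNNT2, a troponin of cardiac muscle (−6.87 ± 0.14 log2), TESPA1 (−6.36 ± 0.12) and NOV, a matricellular protein (−7.75 ± 0.29). NOV had 0.190, 0.971 and 4.06 FPKM in the cerebellum and 80.1, 368 and 674 FPKM in the cortex. MFAP4, a microfibril-associated protein, had 0.409, 2.06 and 6.11 FPKM against 75.0, 199 and 297 FPKM (−6.22 ± 0.28 log2). MYOC, myocilin, had 0.583, 1.86 and 4.69 FPKM against 24.2, 178 and 551 FPKM (−6.12 ± 0.37 log2). None of the 3 overlapped between the tissues. The meninges and fibroblast markers ran the same way, with 5 of 5 lower in the cerebellum and a median of −4.07 log2: the collagen gene COL1A2 differed by −4.33 ± 0.22, decorin (DCN) by −3.76 ± 0.30 and the transporter SLC47A1 by −4.61 ± 0.22. The part of these markers in the differences of MFAP4, MYOC and NOV was not tested.

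Of 18 cortical excitatory neuron genes tested, 14 were lower in the cerebellum, 2 were higher and 2 were not called (median −3.12 log2). Of the 20 measured, 18 reached 1 FPKM in the cortex and 8 in the cerebellum. Without the filter, 14 of the 20 were lower (median −2.71 log2). HS3ST2, a heparan sulfate sulfotransferase, had 0 to 0.233 FPKM in the cerebellum and 5.71 to 13.2 FPKM in the cortex, without overlap (−4.17 ± 0.13 log2). The 2 genes that were higher were NEUROD2 (4.74 to 56.6 FPKM against 0.372 to 3.97 FPKM, 3.82 ± 0.30 log2) and NR4A2 (1.68 ± 0.25 log2). NEUROD2 is a neuronal differentiation factor that is found in granule cells too.

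Of 16 cortical inhibitory neuron genes tested, 10 were lower, 1 was higher (PVALB) and 5 were not called (median −3.08 log2). Of the 20 measured, 15 reached 1 FPKM in the cortex and 9 in the cerebellum. Without the filter, 11 of the 20 were lower (median −1.77 log2). SST, encoding somatostatin, had 1.07, 2.55 and 3.77 FPKM in the cerebellum against 151, 225 and 288 FPKM in the cortex (−6.24 ± 0.15 log2). VIP, the vasoactive intestinal peptide gene, had 0, 0 and 0.152 FPKM against 24.7, 28.9 and 48.9 FPKM (−5.90 ± 0.12 log2). DLX1, a homeobox factor of forebrain interneurons, had 4 reads in the whole cerebellum set and 14.7 to 25.4 FPKM in the cortex (−5.21 ± 0.10 log2). These 3 separated the tissues completely. The enzymes that make GABA were not called: GAD1 differed by 0.61 ± 0.17 log2 and GAD2 by −0.16 ± 0.13 log2, and the ranges overlapped.

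Neuropeptides and growth factors were mostly lower in the cerebellum, with 14 of 22 lower, 2 higher and 6 not called (median −3.30 log2). Beside the interneuron peptides, CHGA, a granin of dense-core vesicles, had 0.643, 0.992 and 1.53 FPKM against 87.2, 107 and 165 FPKM (−6.31 ± 0.12 log2). The tachykinin precursor TAC3 had 6 reads in the cerebellum set and 30.2 to 85.3 FPKM in the cortex (−6.41 ± 0.16 log2). Another granin, CHGB, went the opposite way with 270, 443 and 604 FPKM in the cerebellum and 88.4, 146 and 175 FPKM in the cortex (1.61 ± 0.12 log2, limma, adjusted p = 1.54e-08). CHGA and CHGB thus separated the tissues without overlap in opposite directions. SCG2, a further member of the list, was lower like CHGA, at −4.23 to −3.81 log2 across the alternatives. NTF3, the neurotrophin of granule cells, had 5.08 to 26.7 FPKM against 0 to 0.609 FPKM (4.18 ± 0.25 log2). PENK, BDNF and VGF were not called, at −0.20 ± 0.15, 0.27 ± 0.16 and −0.38 ± 0.28 log2.

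**Figure D3:**
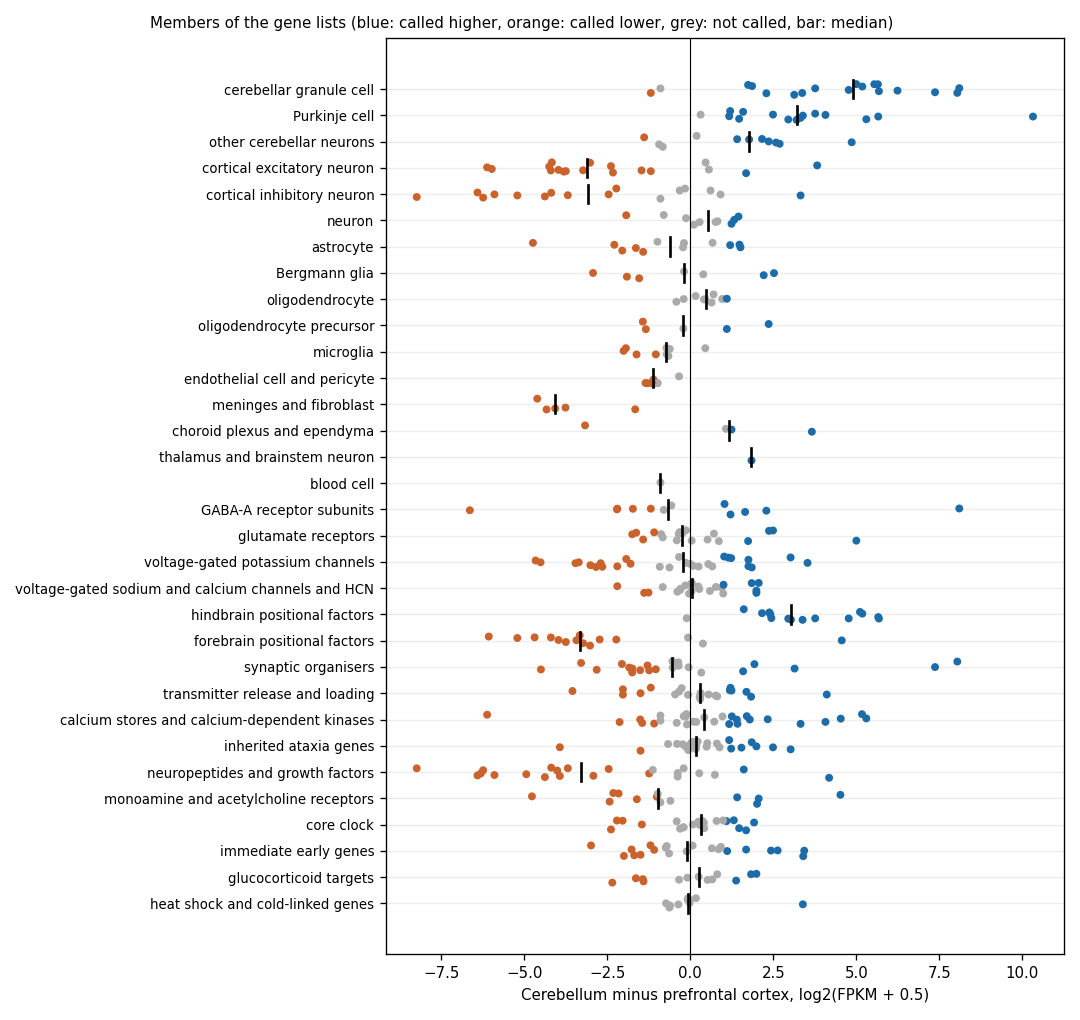
Difference between cerebellum and prefrontal cortex in log2(FPKM + 0.5) for each tested gene of the lists, 1 point per gene and 1 row per list, coloured by the call, with the list median as a bar. Granule cell, Purkinje cell and hindbrain lists lie to the right (medians 4.88, 3.20 and 3.03), and cortical neuron, forebrain, meninges and peptide lists to the left.

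Transcription factors of position along the neural tube divided the tissues sharply. Of 15 hindbrain factors tested, 14 were higher in the cerebellum and none lower (median 3.03 log2, or 3.38 with bounds for 3 genes without a cortical read). No overlap was seen for 13, against 3.89% of all genes higher without overlap. Of the 24 measured, 15 reached 1 FPKM in the cerebellum and 6 in the cortex, so most entered the test through the cerebellum alone. Without this filter, 14 of the 22 with a read were higher (median 2.39 log2). The homeobox gene BARHL2 had 10.1 to 22.5 FPKM and no cortical read, at least 1330-fold higher. Members of the Iroquois family were called together, with IRX1 at 3.38 ± 0.21, IRX2 at 2.44 ± 0.20 and IRX3 at 2.38 ± 0.13 log2. MEIS2 was not called (−0.11 ± 0.22 log2), while its relative MEIS1 had 11.1 to 26.7 FPKM against 1.12 to 2.26 FPKM (3.03 ± 0.13 log2). BARHL1, LHX1, LHX5, ZIC1, ZIC2, ZIC4 and PAX2 stand in the cerebellar neuron lists as well. Of 15 forebrain factors tested, 12 were lower, 1 was higher and 2 were not called (median −3.33 log2). Of the 18 measured, 14 reached 1 FPKM in the cortex and 5 in the cerebellum. Without the filter, 13 were lower (median −3.12 log2). LHX2, a LIM homeobox factor of the cortex, had 0, 0.0423 and 0.0804 FPKM in the cerebellum against 30.0, 35.8 and 45.1 FPKM (−6.07 ± 0.10 log2, limma, adjusted p = 1.25e-15). BHLHE22 was the one that was higher, with 1.18 to 39.5 FPKM against 0 to 0.889 FPKM (4.56 ± 0.34 log2).

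The tissues differed in their GABA-A receptor subunit genes. These receptors are chloride channels of 5 subunits, and the alpha subunit sets much of their pharmacology. Of 12 subunit genes tested, 5 were higher in the cerebellum, 5 were lower and 2 were not called (median −0.69 log2). Among the alpha subunits, GABRA6 was higher and GABRA2, GABRA3, GABRA4 and GABRA5 were lower. GABRA5, the subunit of extrasynaptic receptors in the hippocampus and cortex, had 0, 0.134 and 0.365 FPKM against 47.4, 60.4 and 81.2 FPKM (−6.64 ± 0.14 log2). GABRA3 had 6.14, 8.97 and 12.1 FPKM against 31.6, 43.0 and 56.6 FPKM (−2.20 ± 0.12 log2). GABRD, whose product joins alpha 6 in tonic receptors of granule cells, had 31.4, 164 and 235 FPKM against 7.09, 30.1 and 79.9 FPKM (2.29 ± 0.31 log2, limma, adjusted p = 1.4e-05), with an overlap at ZT4. GABRB2 was at the edge of the 2-fold limit (1.03 ± 0.23), and fell below it without the pair of ZT4, ZT6, ZT10 or ZT16, with values of 0.95 to 0.98.

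**Figure D4:**
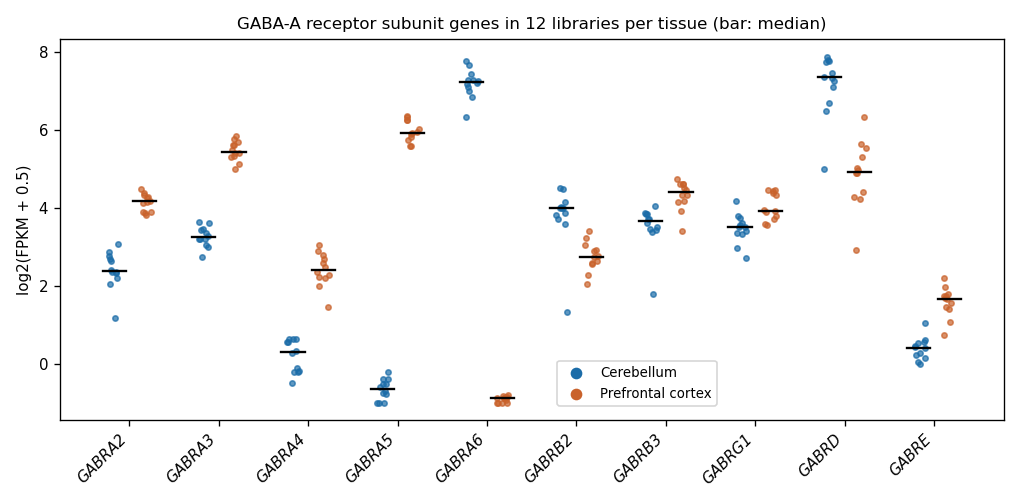
Level of 10 of the 12 tested GABA-A receptor subunit genes in log2(FPKM + 0.5), 1 point per library, 12 libraries per tissue, with the median as a bar. GABRA6 lies near the bottom of the axis in the prefrontal cortex and GABRA5 near the bottom in the cerebellum.

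Of 19 glutamate receptor genes tested, 4 were higher, 4 lower and 11 not called (median −0.24 log2), where 13.1% and 13.6% of all genes were higher and lower. Those that were higher included GRM4, GRIN2C and GRIA4 (1.74 ± 0.10). GRIN2C, the NMDA receptor subunit of mature granule cells, had 15.8, 34.1 and 51.8 FPKM against 1.86, 5.94 and 11.0 FPKM (2.37 ± 0.23 log2), with no overlap. GRIA3, GRM3 and GRM5 were lower at −1.75 ± 0.12, −1.63 ± 0.14 and −1.42 ± 0.21 log2. GRIN2A was lower at −1.09 ± 0.16 log2, and came to −0.99 without the pair of ZT20.

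Voltage-gated potassium channels split in both directions, with 8 of 28 higher, 11 lower and 9 not called (median −0.24 log2). Among all genes tested, 13.1% were higher and 13.6% lower, the background for both lists of this paragraph. KCNC1, a fast channel that lets neurons fire at high rates, had 6.00, 36.1 and 55.5 FPKM in the cerebellum against 0.940, 2.07 and 4.65 FPKM (3.53 ± 0.27 log2). KCNC2, of the same subfamily, was lower with 0.0672 to 0.388 FPKM against 10.6 to 22.1 FPKM (−4.51 ± 0.13 log2). KCNQ5, a channel of the slow M current, had 0.297, 0.558 and 0.944 FPKM against 15.6, 26.1 and 42.6 FPKM (−4.66 ± 0.14 log2). KCNC1, KCNC2 and KCNQ5 did not overlap between the tissues. Of 23 sodium, calcium and HCN channel genes, 5 were higher, 3 lower and 15 not called (median 0.05 log2). CACNA1A, the P/Q-type calcium channel, was higher by 1.85 ± 0.21 log2 and the T-type channel CACNA1G by 1.99 ± 0.25.

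Genes of calcium stores and calcium-dependent kinases were higher in 12 of 29 cases, lower in 5 and not called in 12 (median 0.42 log2). HOMER3, which ties metabotropic glutamate receptors to IP3 receptors, had 76.0, 285 and 507 FPKM in the cerebellum against 0.530, 7.99 and 15.0 FPKM (5.17 ± 0.34 log2, limma, adjusted p = 6.39e-09). ATP2A3, a calcium pump of the endoplasmic reticulum, had 11.4, 24.5 and 39.5 FPKM against 0.104, 0.577 and 1.06 FPKM (4.53 ± 0.20 log2). Neither overlapped between the tissues. The IP3 receptors divided by type: ITPR1, the Purkinje cell form, was higher by 1.17 ± 0.20 log2, and ITPR2 and ITPR3 were lower at −1.45 ± 0.13 and −2.13 ± 0.20 log2. PLCB4, the phospholipase downstream of metabotropic receptors in Purkinje cells, was higher by 2.33 ± 0.17 log2.

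Of 26 genes in which mutations cause inherited ataxia, 7 were higher in the cerebellum, 2 were lower and 17 were not called (median 0.17 log2), where 13.1% and 13.6% of all genes were higher and lower. Those that were higher included the calcium channels CACNA1G and CACNA1A, the potassium channel KCND3 (1.23 ± 0.24 log2) and the calcium release channel ITPR1. PDYN, the prodynorphin gene, had 0.255, 0.736 and 3.43 FPKM against 12.6, 21.2 and 35.3 FPKM (−3.93 ± 0.26 log2). PPP2R2B, a regulatory subunit of protein phosphatase 2A, had 27.1, 34.8 and 42.1 FPKM against 81.7, 99.0 and 120 FPKM (−1.5 ± 0.09 log2). Both were lower without overlap. Genes not called included ATXN2 (−0.02 ± 0.12 log2), ATXN7 (0.22 ± 0.15) and AFG3L2 (0.03 ± 0.08).

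Synaptic organisers were higher in 5 of 23 cases, lower in 11 and not called in 7 (median −0.54 log2). The background for both lists of this paragraph is 13.1% of all genes higher and 13.6% lower. The cerebellin family split: CBLN1 and CBLN3 were in excess, while CBLN4 had 0.0819, 0.278 and 0.60 FPKM in the cerebellum against 10.5, 17.1 and 34.1 FPKM (−4.50 ± 0.17 log2). The pentraxins also split, NPTX1 being higher by 3.14 ± 0.36 log2 and NPTX2 and NPTXR lower at −2.06 ± 0.20 and −1.75 ± 0.20. Of 22 genes of transmitter release and loading, 6 were higher, 5 lower and 11 not called (median 0.30 log2). SYT2, a fast calcium sensor of release, had 8.41, 20.5 and 29.8 FPKM against 0.167, 0.660 and 1.51 FPKM (4.11 ± 0.20 log2), and the complexin CPLX3 was lower at −3.55 ± 0.17. SLC17A6, the other vesicular glutamate transporter, was higher by 1.83 ± 0.24 log2.

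Of 28 measured receptor genes for monoamines and acetylcholine, 13 reached a mean of 1 FPKM in either tissue and were tested. Of these, 4 were higher, 6 lower and 3 not called (median −0.98 log2). HTR5A, a serotonin receptor, had 15.4, 43.5 and 68.6 FPKM in the cerebellum against 0.357, 1.18 and 2.54 FPKM (4.52 ± 0.20 log2). CHRM1, the muscarinic receptor of cortical pyramidal neurons, had 0, 0.229 and 0.523 FPKM against 4.86, 19.0 and 42.9 FPKM (−4.77 ± 0.23 log2). Both separated the tissues. HTR2A and DRD1 were lower at −2.43 ± 0.14 and −2.32 ± 0.15.

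Glial lists held genes in both directions, where 13.1% of all genes were higher and 13.6% were lower. Of 12 astrocyte genes, 3 were higher, 5 lower and 4 not called (median −0.60 log2). SLC1A2, the main glutamate transporter of forebrain astrocytes, had 0.428, 2.31 and 4.27 FPKM in the cerebellum against 36.4, 74.4 and 120 FPKM (−4.74 ± 0.17 log2, limma, adjusted p = 6.05e-12), with no overlap. Its partner SLC1A3, the transporter of Bergmann glia and other astrocytes, had 347 to 461 FPKM against 368 to 705 FPKM and was not called (−0.19 ± 0.10). GJA1 and AQP4, a gap junction and a water channel, were lower at −2.29 ± 0.16 and −1.42 ± 0.18 log2, and S100B was higher by 1.51 ± 0.12. Of 7 Bergmann glia genes, GDF10 (2.21 ± 0.20) and SEPT4 (2.52 ± 0.18) were higher, 3 were lower and 2 were not called (median −0.19 log2). Oligodendrocyte genes were not called in 8 of 9 cases (median 0.46 log2). The summed level of that list ran from 219.2 to 1103.7 FPKM among cerebellum libraries, lowest at ZT20 and highest at ZT14.

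Microglia genes were lower in 4 of 9 cases and not called in 5 (median −0.72 log2). P2RY12, a purine receptor of resting microglia, was lower at −1.94 ± 0.19 log2. Of 7 endothelial cell and pericyte genes, 5 were lower and 2 not called (median −1.12 log2), each within 1.35 log2 of the cortex. Choroid plexus and ependyma genes went both ways: of 4 tested, 2 were higher, 1 was lower and 1 was not called (median 1.16 log2). KCNJ13 was the lower one, with means of 1.84 FPKM in the cerebellum and 12.5 FPKM in the cortex. FOXJ1 and TTR were higher, and FOLR1 was not called. TTR, the transthyretin of the choroid plexus, had 1.23, 11.9 and 245 FPKM in the cerebellum against 0.0982, 0.429 and 2.78 FPKM (3.66 ± 0.52 log2). The highest cerebellum values were those of ZT2 (244.6 FPKM) and ZT0 (87.0 FPKM), the ranges overlapped, and the difference was 3.02 log2 without ZT0, ZT2, ZT4 and ZT20.

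Of 22 clock genes tested, 5 were higher in the cerebellum, 4 were lower and 13 were not called (median 0.32 log2). These counts are near the background, since 13.1% of all genes were higher and 13.6% were lower. CRY1, a repressor of the clock, had 10.3, 19.2 and 28.5 FPKM against 3.73, 4.34 and 6.65 FPKM (1.92 ± 0.16 log2, limma, adjusted p = 9.87e-08). The repressor BHLHE40 had 3.50, 5.54 and 8.76 FPKM against 18.8, 29.3 and 37.2 FPKM (−2.21 ± 0.15 log2). Neither overlapped between the tissues. NFIL3 was higher by 1.68 ± 0.14 log2 and the output factor DBP by 1.31 ± 0.24, whereas ARNTL, CLOCK, PER1 and PER2 were not called, at −0.20 ± 0.11, 0.08 ± 0.19, 0.24 ± 0.27 and −0.31 ± 0.15.

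Immediate early genes, which neurons switch on with activity, were higher in 6 of 21 cases, lower in 7 and not called in 8 (median −0.11 log2). For each list of this paragraph the background is 13.1% of all genes higher and 13.6% lower. EGR4 had 2.18, 12.8 and 21.3 FPKM in the cerebellum against 0, 0.354 and 4.10 FPKM (3.43 ± 0.32 log2), and EGR3 was lower at −2.99 ± 0.20 log2. FOS was higher by 1.11 ± 0.24 and ARC was lower at −1.69 ± 0.40. Of 13 glucocorticoid targets, 3 were higher, 4 lower and 6 not called (median 0.25 log2). FKBP5, a chaperone of the glucocorticoid receptor, had 0.114, 0.781 and 4.32 FPKM against 2.43, 7.30 and 34.3 FPKM (−2.35 ± 0.13 log2). TSC22D3, another target, was higher by 1.83 ± 0.15 log2, so the list did not go one way. MT2A was higher by 1.38 ± 0.44 log2 with all pairs and by 0.99 without the pair of ZT0. Among 9 heat shock and cold-linked genes, HSPB1 was higher by 3.39 ± 0.36 log2, none was lower and 8 were not called (median −0.08 log2).

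Within the cerebellum, the 6 libraries of ZT0 to ZT10 were compared with the 6 of ZT12 to ZT22. Of 12363 genes tested, none passed an adjusted p of 0.05 in limma (0%), and the smallest adjusted p was 0.589. At an unadjusted p under 0.05 there were 915 genes, of which 641 were higher in the light phase (5.18%) and 274 lower (2.22%). limma's voom on the recovered reads called none either, with 860 genes at an unadjusted p under 0.05. The number at that level was 533 without the library of ZT6 and 1448 without that of ZT14, with none called in either. The median SE was 0.24 log2, and the median size of a difference was 0.23 log2. The scores on the axis of the other brain regions were −0.06 (SD 0.81, n = 6) and 0.06 (SD 0.47, n = 6), with p = 0.816 in a two-sided exact permutation test.

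The genes below did not pass and are given as values. FGL2, a fibrinogen-like protein, had 20.6 to 30.0 FPKM at ZT0 to ZT10 and 10.6 to 19.7 FPKM at ZT12 to ZT22, without overlap (0.69 ± 0.16 log2, limma, adjusted p = 0.589). HSPH1, a heat shock protein of the HSP110 family, had 36.5 to 67.1 FPKM against 18.8 to 42.3 FPKM (0.80 ± 0.22), with an overlap. RBBP5, a subunit of histone methyltransferase complexes, had 7.37 to 11.0 FPKM against 2.07 to 6.29 FPKM, with none (0.86 ± 0.23). GRB10, MPP6, ANO4, FXYD6, LRRN3, KPNA6 and CEP76, the other genes of that direction, had differences of 0.43 to 0.77 log2. In the opposite direction, LIMA1, an actin-binding protein, had 21.2 to 36.5 FPKM against 31.9 to 57.7 FPKM (−0.75 ± 0.18). MEIS1 had 11.1 to 15.1 FPKM against 15.6 to 26.7 FPKM, without overlap (−0.52 ± 0.16). FUBP3, ZNF451, GNG10, APITD1-CORT, CSAD, ANKRD10, GAR1 and the gene entered as mascRNA-menRNA had differences of −0.57 to −1.0 log2.

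Glucocorticoid targets held the 2 list members with the smallest unadjusted p. FKBP5 had 0.835 to 4.32 FPKM at ZT0 to ZT10 against 0.114 to 0.727 FPKM at ZT12 to ZT22, a difference of 1.37 ± 0.29 log2 (limma, unadjusted p = 0.000358, adjusted p = 0.589). PDK4, a kinase that restrains pyruvate dehydrogenase, had 2.33 to 6.63 FPKM against 0.829 to 1.95 FPKM, a difference of 1.11 ± 0.25 log2 (limma, unadjusted p = 0.00065, adjusted p = 0.589). In both genes the highest library was ZT2 and the 2 phases did not overlap. The prefrontal cortex of the same animals had differences of 1.30 log2 for FKBP5 and 0.60 log2 for PDK4, and the tissues' differences were not distinguished (limma, unadjusted p = 0.805 and p = 0.172). EGR1, an immediate early factor, had 7.77 to 39.5 FPKM at ZT0 to ZT10 against 18.9 to 55.5 FPKM (−1.19 ± 0.36 log2, limma, adjusted p = 0.589), with a prefrontal difference of 0.02 log2.

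In the lists of cerebellar neurons, 5 of 15 Purkinje cell genes were higher and 1 lower at ZT0 to ZT10 at an unadjusted p under 0.05, against 5.18% and 2.22% of all genes. At the same level, 1 of 18 granule cell genes was higher and 2 were lower. For the other cerebellar neurons, 1 of 11 genes was higher and 0 were lower. ITPR1 had 104 to 140 FPKM against 20.1 to 89.0 FPKM without overlap (0.92 ± 0.30 log2), and the difference was 0.59 without the library of ZT20, which was the lowest. LHX1 had 16.7 to 27.0 FPKM against 23.2 to 52.5 FPKM (−0.60 ± 0.19). PCP2, with 185 to 1247 FPKM against 395 to 954 FPKM, differed by −0.09 ± 0.37 log2. Among GABA-A receptor genes, GABRA6 had 80.8 to 174 FPKM against 147 to 219 FPKM (−0.42 ± 0.18). None of these passed after adjustment over all genes.

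Of 20 clock genes tested in the cerebellum, 1 was higher and 1 was lower at an unadjusted p under 0.05 in the light phase, near the 5.18% and 2.22% of all genes. DBP had its highest values at ZT0 (134.6 FPKM) and ZT22 (131.3 FPKM) and its lowest at ZT4 (32.8 FPKM), so that high and low libraries fell in the same 12 h phase, and the difference between phases was −0.12 log2. NR1D1, a nuclear receptor that represses ARNTL, was highest at ZT0 (69.5 FPKM) and lowest at ZT4 (13.2 FPKM). A 24 h cosine fitted to the same 12 libraries placed the peak of NR1D1 at ZT20.7 (log2 amplitude 0.86, limma, unadjusted p = 0.00204), of DBP at ZT22.3 (0.73, p = 0.00578), of PER1 at ZT23.3 (0.66, p = 0.0127) and of ARNTL at ZT10.2 (0.35, p = 0.0412). The adjusted p of these 4 genes was 0.752 each. NFIL3, PER2, BHLHE40 and RORA were also under 0.05 in this fit (limma, unadjusted p = 0.00929, 0.0139, 0.0343 and 0.0453), each with an adjusted p of 0.752. The other clock genes tested were not, among them PER3 (limma, unadjusted p = 0.108), CLOCK (p = 0.199) and CRY1 (p = 0.258). The library of ZT4 also had the lowest axis score, and its part in the low values of DBP and NR1D1 was not tested. Over all 12363 genes this cosine called 1, ENSPANG00000000498, which has no symbol in the table (peak at ZT22.7, limma, adjusted p = 0.00306). Of the 12363, 673 had an unadjusted p under 0.05.

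**Figure D5:**
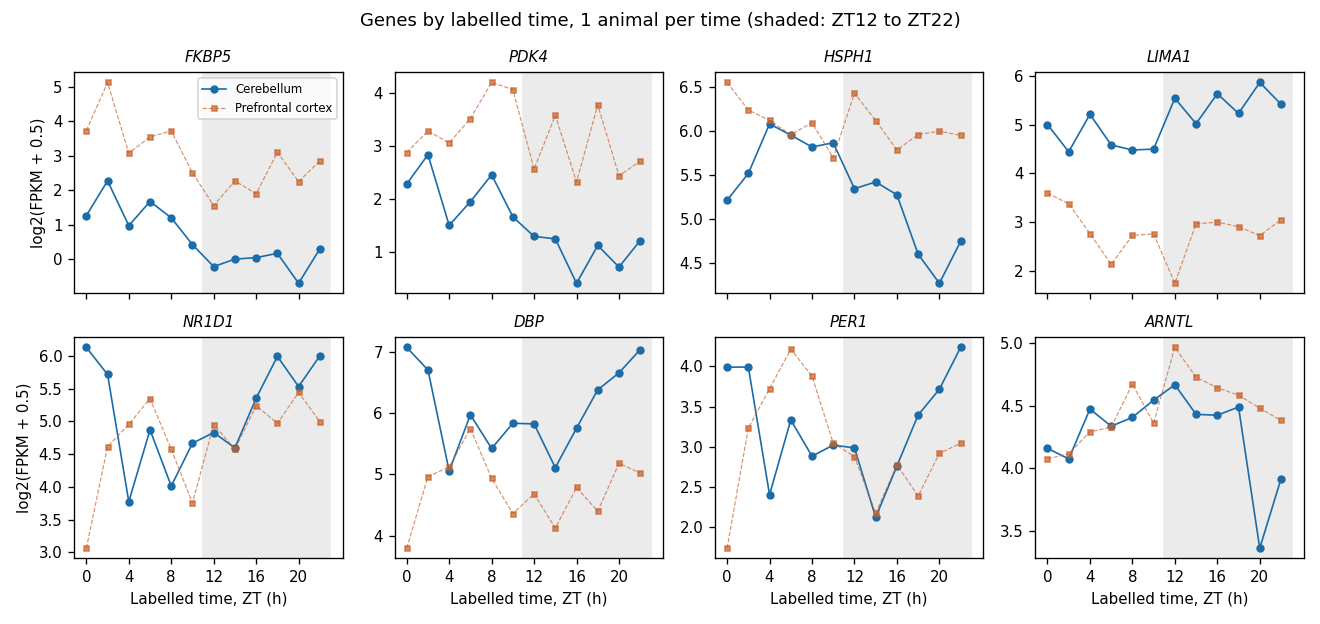
Level in log2(FPKM + 0.5) against time of sampling (ZT, h) for genes of the time-of-day comparison, 1 library per point joined by solid lines for the cerebellum and dashed lines for the prefrontal cortex, with ZT12 to ZT22 shaded. In the cerebellum the points of FKBP5 and PDK4 at ZT0 to ZT10 all lie above those at ZT12 to ZT22, although neither passed after adjustment, and DBP is high at both ZT0 and ZT22.

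The difference of the phases was last compared between the tissues, within animals. Of 13587 genes, none passed an adjusted p of 0.05 in limma (0%, smallest adjusted p 0.252), with 574 at an unadjusted p under 0.05, and voom called none, with 532 at that level. The number was 1368 without the pair of ZT0. LRRTM3, a leucine-rich synaptic adhesion protein, had a cerebellar difference of 0.94 and a prefrontal difference of −0.18 log2, which differed by 1.12 ± 0.24 (limma, unadjusted p = 0.000359, adjusted p = 1.00). MALAT1, a nuclear long RNA, had differences of −0.83 and 0.67 log2, which differed by −1.49 ± 0.38. It ranged from 36.8 to 183 FPKM at ZT0 to ZT10 and from 130.0 to 222 FPKM at ZT12 to ZT22 in the cerebellum. With the axis score as a covariate the MALAT1 difference passed (−1.52, limma, adjusted p = 0.0326). MEIS1, VEGFA and CSAD were the next genes, at −0.73 ± 0.19, −0.75 ± 0.20 and −0.96 ± 0.26 log2, none of which passed.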

How the data were processed

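RNA was sequenced from 12 cerebellum and 12 prefrontal cortex samples. The values deposited by the authors are FPKM for 29202 genes, 20432 of them with a symbol. STAR, featureCounts and DESeq2 are named per the submitters' processing notes; for their versions and roles, the genome build and the use of strand in counting, the sources used here give nothing, so overlapping or antisense genes cannot be told apart. Each FPKM was a whole number of reads (within 0.01) times a gene and a library step in 23144 of 23145 rows above 0, which gave back the reads.

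Tissues were compared with limma 3.58.1 (R 4.3.3) on log2(FPKM + 0.5), with each time as a block, over genes with a mean of at least 1 FPKM. Phases were compared in the cerebellum alone, and between tissues on within-time differences. Fold changes on this scale understate low genes. Genes were named by size of difference in each direction, among those called with a mean of at least 5 FPKM (15 per direction), and by unadjusted p for phases (10 per direction) and for the difference between tissues (5). Time pairs come from the labels, which give 1 animal per time. After centring each tissue, same-time libraries correlated at −0.43 to 0.42, with 7 of 12 over 0.1, and at 0.05 to 0.44 with the axis removed. The axis is the first principal component of 72 libraries of 6 other brain regions. Alternatives covered the pseudocount, filter, scaling, voom, the axis, the block and each library left out. The members and lists were chosen with earlier results of these data known. Depth limits genes of a few reads, and a limit of 3 reads covers counting error only. A few members of the lists count in the totals and are not reported here by name.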

Additional observations from a re-analysis of the deposited data

Results flagged for a closer look

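In the cerebellum, 106 groups of 6 libraries (52 genes and the axis score, in each phase) were screened for 1 library far from the others, and 13 were found, where chance gives about 1 in 20. Of these, 6 were low at ZT4 among the libraries of ZT0 to ZT10. CSNK1E, a clock kinase, had 8.55 FPKM there against 30.1 to 38.6 FPKM in the others. The glucocorticoid targets TSC22D3, KLF9, KLF15 and MT2A had 34.1, 4.43, 1.68 and 43.7 FPKM at ZT4, against 48.8 to 58.7, 23.2 to 34.0, 6.19 to 8.97 and 140.0 to 218.0 FPKM in the other light-phase libraries. The axis score of the same library was −1.67, against 0.01 to 0.50.

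The library of ZT20 stood apart in the dark phase for 7 genes. GRB10, ANO4, LRRN3, KPNA6 and NPAS2 were lowest there, at 5.03, 2.16, 24.1, 5.84 and 1.54 FPKM, where the others had 7.06 to 8.40, 3.91 to 4.75, 36.1 to 41.5, 8.02 to 8.98 and 5.47 to 7.27 FPKM. CSAD was highest there at 29.5 FPKM against 13.3 to 17.2 FPKM, and NFKBIA at 42.6 FPKM against 22 to 25.6 FPKM. GRB10, ANO4, LRRN3, KPNA6 and CSAD are genes named in the comparison of phases. The library of ZT20 was the shallowest of the cerebellum at 4.48 M reads. That of ZT16 had 4.51 M and was not flagged for any gene. The part of depth was not tested.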

How the results depend on the processing

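The named genes and list members called between the tissues kept their direction in each alternative that tested them. The count of genes lower in the cerebellum was 1067 with a filter at 5 FPKM, and a test against a log2 difference of 1 left 816 higher and 1036 lower. Leaving out each time gave 1601 to 1991 higher and 1792 to 1923 lower. Without the replicate block 3629 genes were called, against 3628 with it, 3623 of them shared. For the phases in the cerebellum, each alternative called 0 genes except for 1 lower gene in the 24 h cosine fit and 1 lower gene without ZT0, ZT2, ZT4 and ZT20 (smallest adjusted p 0.000298), an alternative chosen after seeing the data; the prefrontal value of the same animal as a replicate block gave 0. For the difference between tissues, the axis score as a covariate gave 3 genes in the negative direction, and leaving out each time gave 0 to 1. The causes were not tested. Another scaling moved the median of all genes by at most 0.08 log2. List members close to 2-fold that lost their call under a left-out time include MAG, SOX10, AIF1, SCN2B, HTR2C, LRRTM4 and HOMER1. PECAM1, VWF, FOXJ1 and GABRE kept it there, and lost it with a pseudocount of 1 and in the test against a log2 difference of 1. Genes of a few reads per library are beyond this depth. With 6 animals a phase, a time difference of 1.37 ± 0.29 log2 (FKBP5) did not pass.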
